A study of Mus musculus with 23 samples.

Results

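Bmp4, 5 genes known as transcriptional targets of BMP signalling (Id1, Id2, Id3, Msx1 and Msx2) and 3 transcription factor genes of posterior mesoderm (Cdx1, Cdx2 and T) were followed from embryonic stem cells to mature eggs in mouse. They were chosen by name from the 22784 genes of a deposited expression table, and all 9 were found there. The 23 RNA-seq samples fall into 8 groups, each with 3 samples apart from the day 6 cells, which have 2. In the culture route, of strain C57BL/6 X 129, female ES cells were kept in 2i+LIF medium. Primordial germ cell-like cells (PGCLCs) were induced from female epiblast-like cells (EpiLCs) for 6 days and purified by FACS. These day 6 PGCLCs were then joined with gonadal somatic cells of female E12.5 embryos, 5000 PGCLCs with 50000 somatic cells for each reconstituted ovary, and taken after 3 days (reaggregated PGCLCs) or after 21 days as oocytes of secondary follicles. The oestrogen receptor antagonist ICI182780 was present at 500 nM between days 7 and 10. MII oocytes, the mature eggs arrested at the second meiotic metaphase, came after a further 11 days of follicle culture, with BMP15 and GDF9 at 15 ng/ml each for the first 2 days, and 16 h of maturation. The animal route, of strain B6D2F1, had E12.5 primordial germ cells (PGCs) and secondary follicle oocytes of postnatal day 8, both sorted with the BVSC reporter transgenes, and MII oocytes of 8-week-old females. Strain and route therefore cannot be told apart in any comparison of culture with animal. The labels do not give the sex of the E12.5 PGCs, nor how germ cells were separated from somatic cells in the day 3 aggregates.

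Bone morphogenetic proteins are secreted ligands that bind pairs of type I and type II serine/threonine kinase receptors. The receptors phosphorylate SMAD1, SMAD5 and SMAD9, which enter the nucleus with SMAD4 and switch on targets such as the Id and Msx genes. In the mouse embryo BMP4 from the extraembryonic ectoderm induces the germ line in the posterior epiblast, next to the cells that form posterior mesoderm and express T and Cdx genes. In the ovary the oocyte itself makes BMP15, BMP6 and the related ligand GDF9. Which SMADs each of these ligands acts through was not tested here.

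The sequences before the transcription start of 4 of the genes are shown because a comparison given below turns on each. Msx1 and Cdx2 differed most between reaggregated PGCLCs and E12.5 PGCs, Id2 had ratios of opposite sign in the last oocyte step of the 2 routes, and Bmp4 is the ligand. RefSeq promoters of build GRCm38.p6 were at hand for 7 of the 9 genes. Each line starts 250 bases before the RefSeq start and ends where the window ends or meets an exon of the GENCODE M21 annotation, read 5′ to 3′ on the gene's strand. The Bmp4 stretch is chr14:46390670-46390919 (minus strand), and that of Msx1 is chr5:37824586-37824835 (minus strand), both upstream of the annotated gene. The Cdx2 stretch, chr5:147307271-147307499 (minus strand), has 229 bases and is also upstream of the gene, and the Id2 stretch, chr12:25096254-25096342 (minus strand), has 89 bases and lies inside an intron of a longer annotated Id2 transcript. Capitals mark matches, on either strand, to the motifs named after the sequences.
Bmp4: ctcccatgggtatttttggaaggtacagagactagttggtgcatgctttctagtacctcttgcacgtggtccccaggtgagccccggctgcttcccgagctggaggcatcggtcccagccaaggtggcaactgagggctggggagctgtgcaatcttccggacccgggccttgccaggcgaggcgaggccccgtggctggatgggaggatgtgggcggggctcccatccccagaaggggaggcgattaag
Msx1: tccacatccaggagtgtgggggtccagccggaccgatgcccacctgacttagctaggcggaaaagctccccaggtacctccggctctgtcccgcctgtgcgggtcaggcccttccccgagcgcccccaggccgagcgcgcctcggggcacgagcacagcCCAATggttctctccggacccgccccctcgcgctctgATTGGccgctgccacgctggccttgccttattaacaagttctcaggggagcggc
Cdx2: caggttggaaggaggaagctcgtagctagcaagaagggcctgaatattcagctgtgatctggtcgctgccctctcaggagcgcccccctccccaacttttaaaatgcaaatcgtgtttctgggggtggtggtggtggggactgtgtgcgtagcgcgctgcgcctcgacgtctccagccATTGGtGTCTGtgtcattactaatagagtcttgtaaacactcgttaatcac
Id2: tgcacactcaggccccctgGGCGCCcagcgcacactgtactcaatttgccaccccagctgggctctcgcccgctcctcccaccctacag

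The letters searched, each with its reverse complement, were GGCGCC (a GC-rich palindrome bound by SMADs), CAGAC (the SMAD box), TTTAT (the core of CDX sites), TAATT (a homeodomain core), CCAAT and TATAA. They were chosen after the sequences had been seen. Over the 250-base windows of all 32851 RefSeq promoters, GGCGCC was present in 9.59%, CAGAC in 42.2%, TTTAT in 37.3%, TAATT in 25.0%, CCAAT in 33.8% and TATAA in 22.8%. CCAAT was the most frequent among the 7 windows, present in 5 of them. The Msx1 window held CCAAT on both strands, 91 and 54 bases before the start, and the Cdx2 window held CCAAT next to CAGAC, each on the minus strand of the gene. In the Id2 window GGCGCC lay 231 bases before the start. Past the stretch shown, that window also held CCAAT, on either strand, 159, 120 and 76 bases before the start. It held TTTAT, on the minus strand of the gene, 28 bases before the start. The Bmp4 window held none of the 6. GC content was 63.2% for Bmp4, 68.0% for Msx1, 55.2% for Cdx2 and 62.8% for Id2, against a median of 52.4% over all promoters. Such matches describe the letters in these windows and nothing more.

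The table gives levels in FPKM (read fragments scaled to transcript length and to library size), so levels of different genes may be set side by side. It holds 1 value per gene and group, so no spread between samples, no error and no test can be given for any value, and neighbours in an order of levels cannot be told apart or called alike. Differences are given as the log2 ratio of FPKM + 1, which understates the change of genes near 0, and genes whose ratio reached 2-fold (1 on the log2 scale) are called higher or lower. A gene was counted where it had at least 1 FPKM in some group, which held for 14242 genes and for 8 of the 9. T, with at most 0.878 FPKM, did not pass. In bulk RNA, fewer cells with a transcript and less of it per cell cannot be told apart. The groups carried markers of their labels, though not at equal levels in both routes, and some of the marker lists are given beside the comparisons. Nanog had 253 FPKM in ES cells, Dnd1 162 FPKM in day 6 PGCLCs and Dazl 365 FPKM in reaggregated PGCLCs, against 432 FPKM in E12.5 PGCs. Zp3 had 5094 and 5544 FPKM in cultured and animal secondary follicle oocytes, and Gdf9 6768 and 11132 FPKM in cultured and animal MII oocytes. Most oocyte markers were lower at MII than in secondary follicle oocytes, Zp3 having 739 and 79.8 FPKM in cultured and animal MII oocytes. In culture 6 of 8 were lower and 1 higher, where 28.6% of all genes were lower and 23.9% higher. In the animal 6 of 8 were lower and 2 higher, where 33.1% of all genes were lower and 28.0% higher.

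**Figure D1:**
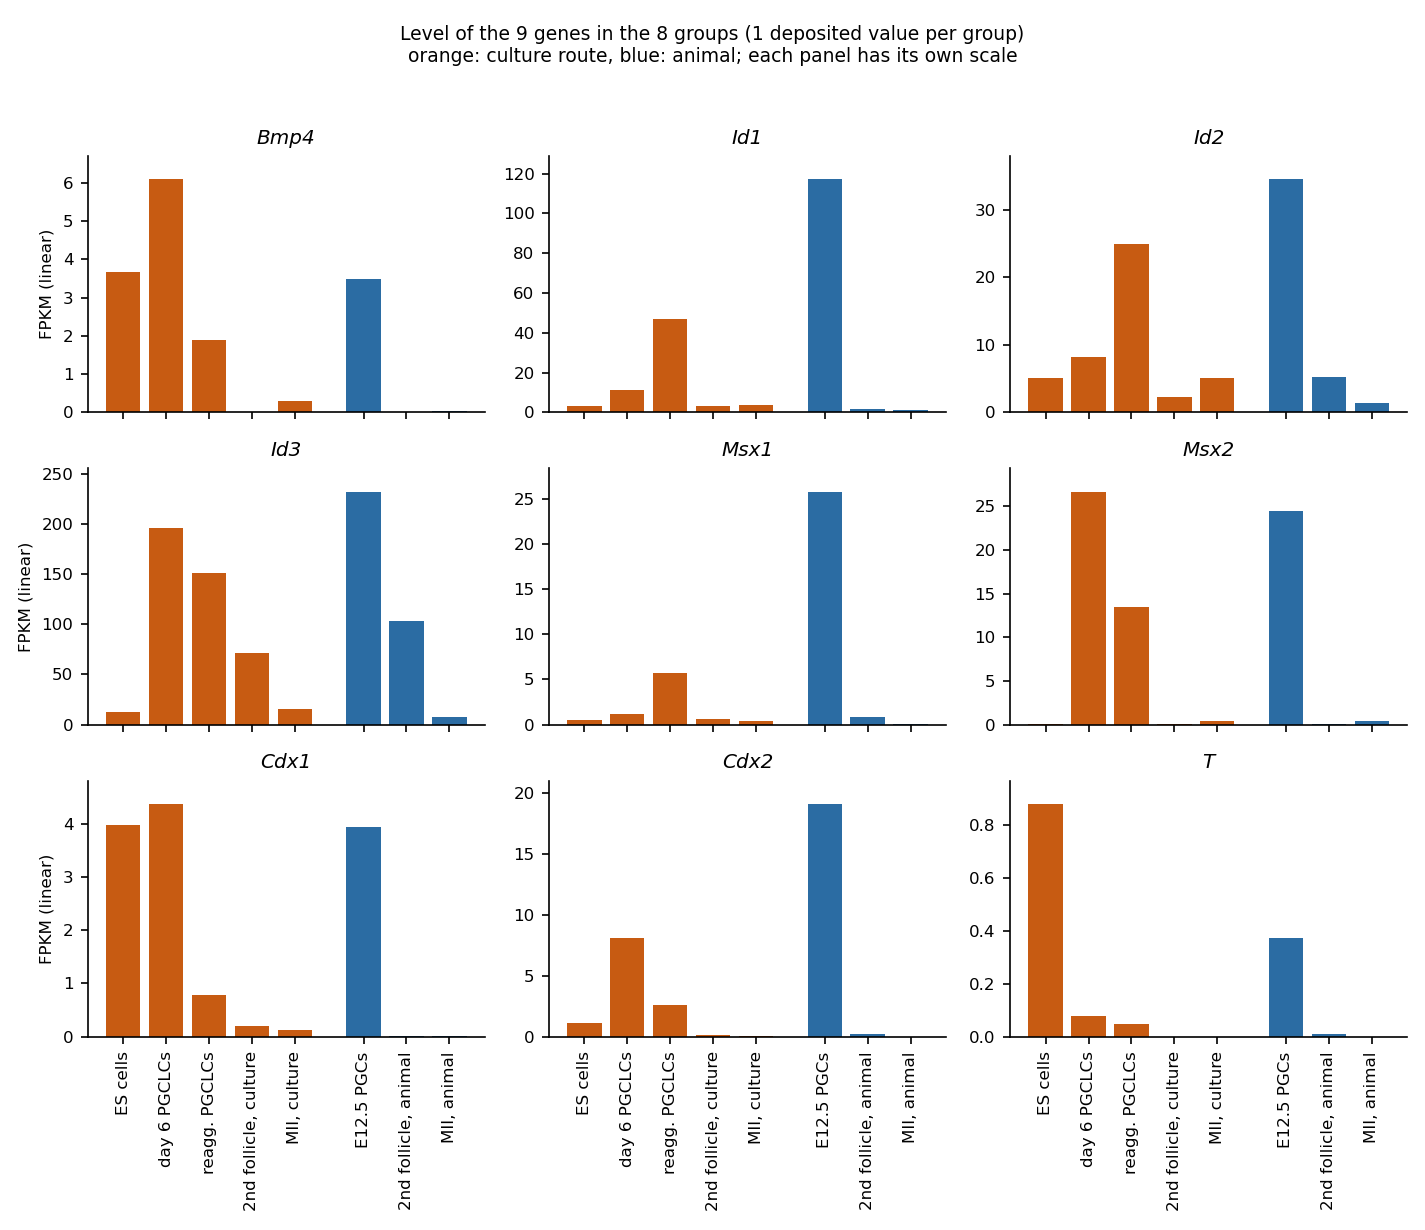
Level of each of the 9 genes in FPKM on a linear axis from 0 in the 8 groups (orange, culture; blue, animal), 1 deposited value per bar and a separate scale per panel. Id1, Id2, Id3, Msx1 and Cdx2 had their highest bar in E12.5 PGCs, Bmp4, Msx2 and Cdx1 in day 6 PGCLCs, and T in ES cells, where it had 0.878 FPKM.

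Bmp4, the ligand, was a low transcript throughout. Along the culture route it had 3.66 FPKM in ES cells, 6.09 in PGCLCs at day 6, 1.90 in reaggregated PGCLCs, 0.0185 in secondary follicle oocytes and 0.305 in MII oocytes. In the animal it had 3.49 FPKM in E12.5 PGCs, 0.0218 in secondary follicle oocytes and 0.0366 in MII oocytes. The 4 groups of ES cells and early germ cells thus lay above 1 FPKM and all 4 oocyte groups below it. Even its highest level stood at percentile 49.9 among the counted genes of day 6 PGCLCs. Bmp4, at chr14:46383520-46390669 (minus strand), overlaps Gm15217 on the other strand, and Gm15217 was listed at 0.119 FPKM in ES cells and at 0 in the other groups.

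Id1, Id2 and Id3 encode helix-loop-helix proteins that lack a DNA-binding region and bind E proteins, which keeps these off DNA. Id3, at chr4:136143497-136145755 (plus strand), was the most abundant of the 9 genes in every group. Its FPKM were 12.8 in ES cells, 196 in PGCLCs at day 6, 151 in reaggregated PGCLCs, 71.3 in cultured secondary follicle oocytes and 15.5 in cultured MII oocytes. In the animal Id3 had 232 FPKM in E12.5 PGCs, 103 in secondary follicle oocytes and 7.04 in MII oocytes. Early germ cells were highest in both routes, secondary follicle oocytes kept an intermediate level, and MII oocytes were lowest in the animal series.

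Id1, at chr2:152736251-152737410 (plus strand), stood out in early germ cells. It had 3.06 FPKM in ES cells, 11.3 in PGCLCs at day 6, 46.7 in reaggregated PGCLCs, 3.38 in cultured secondary follicle oocytes and 3.61 in cultured MII oocytes. In the animal Id1 had 117 FPKM in E12.5 PGCs, 1.46 in secondary follicle oocytes and 1.15 in MII oocytes. The level in E12.5 PGCs was at percentile 97.6 of the genes of that group, and that of reaggregated PGCLCs at percentile 91.6 of its own. Id2, at chr12:25093799-25097140 (minus strand), had 5.13 FPKM in ES cells, 8.15 in PGCLCs at day 6, 25.0 in reaggregated PGCLCs, 2.25 in cultured secondary follicle oocytes and 5.05 in cultured MII oocytes. In the animal Id2 had 34.5 FPKM in E12.5 PGCs, 5.29 in secondary follicle oocytes and 1.32 in MII oocytes. Its range was narrower than that of Id1, and reaggregated PGCLCs and E12.5 PGCs were its 2 highest groups.

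The mix of the 3 Id transcripts differed between stages. Their summed level was 21.0 FPKM in ES cells, 215 in PGCLCs at day 6, 223 in reaggregated PGCLCs, 76.9 in cultured secondary follicle oocytes and 24.1 in cultured MII oocytes, and in the animal 384 FPKM in E12.5 PGCs, 110 in secondary follicle oocytes and 9.51 in MII oocytes. Id3 made up 91.0% of that sum in day 6 PGCLCs, 67.8% after reaggregation and 60.6% in E12.5 PGCs, where Id1 contributed 5.24%, 20.9% and 30.4% in the same order of groups. In secondary follicle oocytes Id3 was 92.7% of the sum in culture and 93.8% in the animal, so Id1 and Id2 were minor at that stage in both routes.

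**Figure D2:**
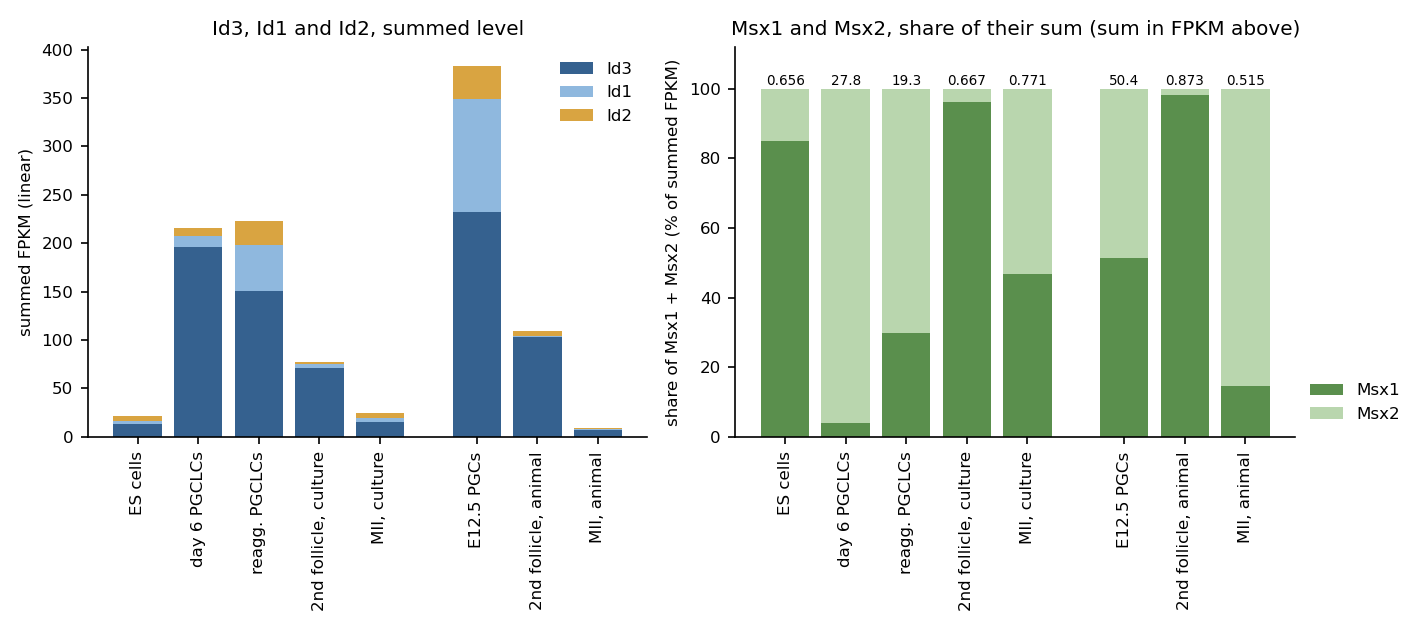
Left, FPKM of Id3, Id1 and Id2 stacked to their sum in the 8 groups; right, the shares of Msx1 and Msx2 in percent of their summed FPKM, with the sum printed above each bar. The Id sum was 223 FPKM in reaggregated PGCLCs, against 384 FPKM in E12.5 PGCs, and Msx2 was 95.9% of the Msx sum in day 6 PGCLCs; Msx shares in ES cells and oocytes rest on sums under 1 FPKM.

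Msx1 and Msx2 encode homeodomain repressors that respond to BMP in many embryonic tissues. Msx1, at chr5:37820485-37824583 (minus strand), had 0.558 FPKM in ES cells, 1.13 in PGCLCs at day 6, 5.72 in reaggregated PGCLCs, 0.641 in cultured secondary follicle oocytes and 0.360 in cultured MII oocytes. In the animal it had 25.8 FPKM in E12.5 PGCs, 0.856 in secondary follicle oocytes and 0.0751 in MII oocytes. E12.5 PGCs stood above every other group, and reaggregated PGCLCs came next. Msx2, at chr13:53466884-53473074 (minus strand), had 0.0975 FPKM in ES cells, 26.7 in PGCLCs at day 6, 13.5 in reaggregated PGCLCs, 0.0258 in cultured secondary follicle oocytes and 0.411 in cultured MII oocytes. In the animal it had 24.5 FPKM in E12.5 PGCs, 0.0162 in secondary follicle oocytes and 0.440 in MII oocytes. Unlike Msx1, Msx2 was already at its highest in day 6 PGCLCs, where it was 95.9% of the Msx sum, against 70.3% in reaggregated PGCLCs, against 48.7% in E12.5 PGCs.

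Cdx1 and Cdx2 encode caudal-type homeodomain factors of the posterior embryo, and Cdx2 also acts in trophectoderm. Cdx1 had 3.97 FPKM in ES cells, 4.37 in PGCLCs at day 6, 0.776 in reaggregated PGCLCs, 0.199 in cultured secondary follicle oocytes and 0.133 in cultured MII oocytes. In the animal Cdx1 had 3.93 FPKM in E12.5 PGCs, 0.00537 in secondary follicle oocytes and 0.0133 in MII oocytes. ES cells, day 6 PGCLCs and E12.5 PGCs lay within 1 FPKM of each other, with reaggregated PGCLCs below them. Cdx2, at chr5:147300805-147307270 (minus strand), had 1.09 FPKM in ES cells, 8.07 in PGCLCs at day 6, 2.64 in reaggregated PGCLCs, 0.106 in cultured secondary follicle oocytes and 0.0497 in cultured MII oocytes. In the animal Cdx2 had 19.1 FPKM in E12.5 PGCs, 0.243 in secondary follicle oocytes and 0.0106 in MII oocytes. Both Cdx genes were under 1 FPKM in all oocyte groups.

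T, which encodes brachyury, the T-box factor of primitive streak and notochord, stayed below 1 FPKM in all 8 groups. On chromosome 17 from 8434423 to 8442496 on the plus strand, it had 0.878 FPKM in ES cells, 0.0798 in PGCLCs at day 6 and 0.0463 in reaggregated PGCLCs, and was listed at 0 in both cultured oocyte groups. In the animal T had 0.372 FPKM in E12.5 PGCs and 0.00901 in secondary follicle oocytes, and was listed at 0 in MII oocytes. Its ratios are shown in the plots and were not counted.

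Culture was set against the animal at the 3 stages sampled in both routes. At the earliest, reaggregated PGCLCs against E12.5 PGCs, 8 of 8 counted genes had a ratio below 0, and 4 were called lower. Cdx2 had 2.64 FPKM in reaggregated PGCLCs, against 19.1 in E12.5 PGCs (log2 ratio -2.46), Msx1 5.72 and 25.8 FPKM (-2.0), Cdx1 0.776 and 3.93 FPKM (-1.47) and Id1 46.7 and 117 FPKM (-1.30). With a pseudocount of 5 Cdx1 was within 2-fold (-0.63). Among all 14242 genes 0.786% were lower and 1.39% higher at this stage, and the median ratio was -1.06 over the 8 genes and 0.00 over all. Msx2 (-0.81), Bmp4 (-0.63), Id3 (-0.62) and Id2 (-0.45) were within 2-fold, Msx2 reaching -1.04 with quantile normalization. Cdx2 and Cdx1 were also called lower in reaggregated than in day 6 PGCLCs. Bmp4, within 2-fold against E12.5 PGCs, was called lower against day 6 PGCLCs alone. Msx1 and Id1 were higher in reaggregated than in day 6 PGCLCs and still lower than in E12.5 PGCs.

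Some marker genes of germ and somatic cells moved with this comparison, in both directions. Of the 5 markers of gonadal germ cells, which summed to 557 FPKM in reaggregated PGCLCs, against 778 in E12.5 PGCs, 2 were lower and 0 higher. Ddx4, an RNA helicase gene of germ cells, had 62.1 FPKM after reaggregation, against 135 in E12.5 PGCs, and Mael, of the piRNA pathway, 28.9 against 112 FPKM. Dazl (365 and 432 FPKM), Stra8 (66.7 and 63.6 FPKM) and Sycp3 (34.0 and 35.6 FPKM) were within 2-fold. Of 6 markers of early germ cells 1 was higher and 0 lower, with a median ratio of 0.11. The higher one was Prdm1, at 28.7 FPKM in reaggregated PGCLCs and 13.8 FPKM in E12.5 PGCs. The 12 markers of granulosa and supporting cells summed to 16.6 FPKM in reaggregated PGCLCs, against 3.46 FPKM in E12.5 PGCs, with 3 of 10 counted genes higher, and were led by Inha at 4.69 and 0.839 FPKM. Fshr was listed at 0 in both, and Foxl2 had 1.28 and 0.319 FPKM. The 10 stroma markers summed to 24.3 FPKM in reaggregated PGCLCs, against 28.1 FPKM in E12.5 PGCs, mostly Vim, at 17.0 and 27.5 FPKM. Of 5 counted stroma genes 3 were higher and 0 lower. These were Col1a1 (1.35 and 0.0390 FPKM), Col1a2 (1.28 and 0.0713 FPKM) and Col3a1 (2.42 and 0.0906 FPKM). The 8 blood and endothelium markers summed to 81.1 and 68.2 FPKM, mostly Pecam1, a gene germ cells also express, and Hbb-y was listed at 0 in reaggregated PGCLCs and had 3.55 FPKM in E12.5 PGCs. The part of germ cell stage or of somatic cells in the ratios was not tested.

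**Figure D3:**
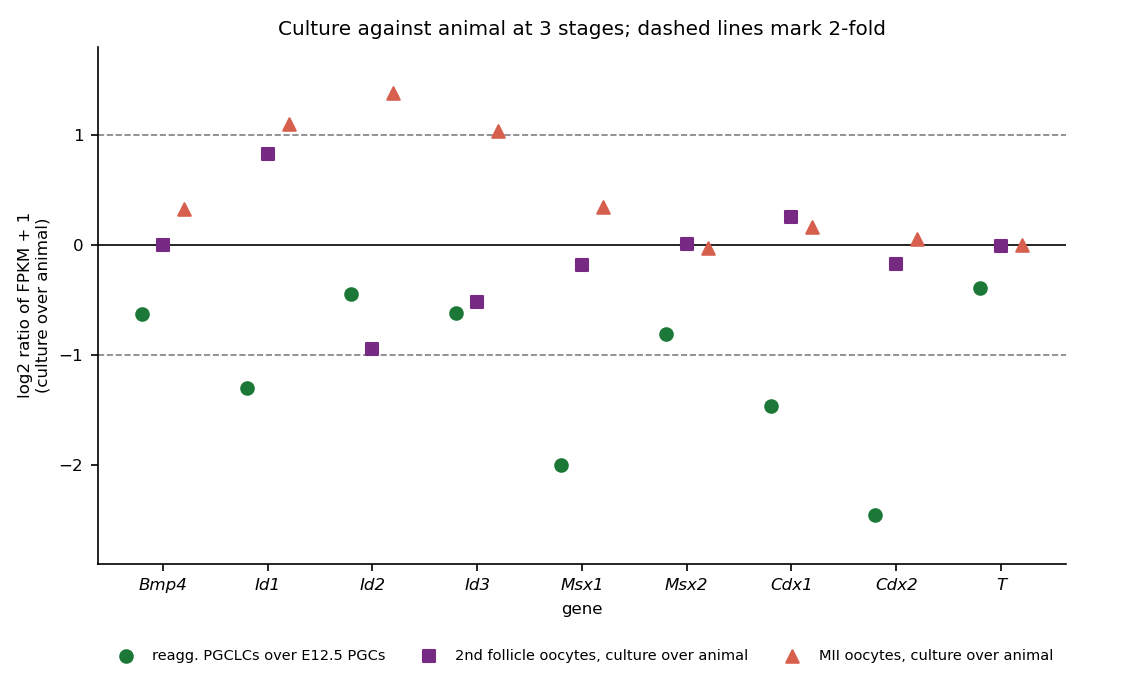
Log2 ratio of FPKM + 1, culture over animal, for the 9 genes at 3 stages (circles, reaggregated PGCLCs over E12.5 PGCs; squares, secondary follicle oocytes; triangles, MII oocytes), with dashed lines at 2-fold. The circles lay below 0, at -2.46 for Cdx2 and -2.0 for Msx1, and the triangles of Id1, Id2 and Id3 were above the upper line, at 1.10, 1.38 and 1.04.

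In secondary follicle oocytes 0 of 8 genes were called in either direction, against 1.74% of all genes higher and 0.660% lower in culture. Id3 had 71.3 FPKM in culture, against 103 in the animal (-0.52), Id2 2.25 and 5.29 FPKM (-0.95), and Id1 3.38 and 1.46 FPKM (0.83). Id1 and Id2 therefore leaned opposite ways, both short of 2-fold, and both passed it with a pseudocount of 0.1 (1.16 and -1.20). The other 5 counted genes were below 1 FPKM in both routes. Somatic markers were close, the granulosa list summing to 25.4 FPKM in culture, against 19.2 FPKM in the animal and the stroma list to 0.806 and 1.27 FPKM.

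In MII oocytes the 3 Id genes were the only ones called, all higher in culture. Id2 had 5.05 FPKM in culture, against 1.32 in the animal (1.38), Id1 3.61 and 1.15 FPKM (1.10) and Id3 15.5 and 7.04 FPKM (1.04). Beside these 3 of 8 genes higher and 0 lower, 12.4% of all genes were higher and 9.45% lower, with medians of 0.34 over the 8 genes and 0.01 over all. None of the 3 reached 2-fold with quantile normalization, which gave 0.92 for Id2, 0.70 for Id1 and 0.61 for Id3, nor with a pseudocount of 5. Of all calls, 56.8% were higher in culture, 79.5% with median ratio scaling and 93.4% with equal sums. Oocyte markers moved with the Id genes, 5 of 8 being higher in culture and 0 lower, with a median ratio of 1.69. The egg coat genes Zp1 (383 and 35.6 FPKM), Zp2 (483 and 37.8 FPKM) and Zp3 (739 and 79.8 FPKM) were among the 5, the first value being that of culture, while Gdf9 was within 2-fold and the list summed to 9724 FPKM in culture, against 12114 FPKM in the animal. Granulosa markers summed to 136 FPKM in culture, against 121 FPKM in the animal, with 2 of 10 counted genes higher and 0 lower. The 2 were Inha (19.3 and 2.55 FPKM) and Inhba (5.89 and 2.25 FPKM). Gata4 had 76.7 and 64.8 FPKM and Cyp19a1 27.1 and 42.2 FPKM. Stroma markers summed to 18.2 and 2.85 FPKM, mostly Vim, with 2 of 5 counted genes higher and 0 lower. These were Vim (14.9 and 2.24 FPKM) and Acta2 (1.89 and 0.0797 FPKM). Their part in the ratios was not tested.

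Along the culture route the first step, from ES cells to day 6 PGCLCs, was the only one in which more than 3 of the genes were higher. PGCLC induction as commonly done exposes EpiLCs to BMP4, and the labels refer to an earlier publication for it. The part of such exposure in the ratios was not tested, and ES cells and day 6 PGCLCs also differ in medium and stage. Msx2 had 26.7 FPKM in day 6 PGCLCs and 0.0975 in ES cells (4.66), Id3 196 and 12.8 FPKM (3.84), Cdx2 8.07 and 1.09 FPKM (2.12) and Id1 11.3 and 3.06 FPKM (1.60). These were 4 of 8 genes higher and 0 lower, where 9.63% of all genes were higher and 12.0% lower, with medians of 1.10 over the 8 genes and 0.00 over all. Bmp4 (0.61), Id2 (0.58), Msx1 (0.45) and Cdx1 (0.11) were within 2-fold. Stroma markers moved too, with 4 of 5 counted genes higher, Col1a1 having 6.88 FPKM in day 6 PGCLCs and 0.878 in ES cells and Acta2 3.75 and 0.0447 FPKM. The fifth, Vim, was lower, at 31.0 and 197 FPKM, so the list summed to 45.9 FPKM in day 6 PGCLCs and 198 FPKM in ES cells. Granulosa markers summed to 1.67 FPKM in day 6 PGCLCs and 6.14 FPKM in ES cells. Their part was not tested.

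After 3 days with gonadal somatic cells the 8 genes moved both ways. Id1 had 46.7 FPKM in reaggregated and 11.3 in day 6 PGCLCs (1.96), Msx1 5.72 and 1.13 FPKM (1.66) and Id2 25.0 and 8.15 FPKM (1.51). Lower were Cdx1 (-1.60), Cdx2 (-1.32) and Bmp4 (-1.29). Both Cdx genes were thus lower, while of the 5 Id and Msx genes 3 were higher, with Id3 (-0.37) and Msx2 (-0.93) within 2-fold. Against the 3 higher and 3 lower of 8, 5.15% of all genes were higher and 5.04% lower. With a pseudocount of 5 Id1 and Id2 alone stayed past 2-fold, while Msx1 (0.81), Cdx2 (-0.78), Cdx1 (-0.70) and Bmp4 (-0.69) were within it. Of all calls 50.5% were higher in reaggregated PGCLCs, 61.0% with median ratio scaling and 71.4% with equal sums. Granulosa markers summed to 16.6 FPKM in reaggregated and 1.67 FPKM in day 6 PGCLCs, and stroma markers to 24.3 and 45.9 FPKM.

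**Figure D4:**
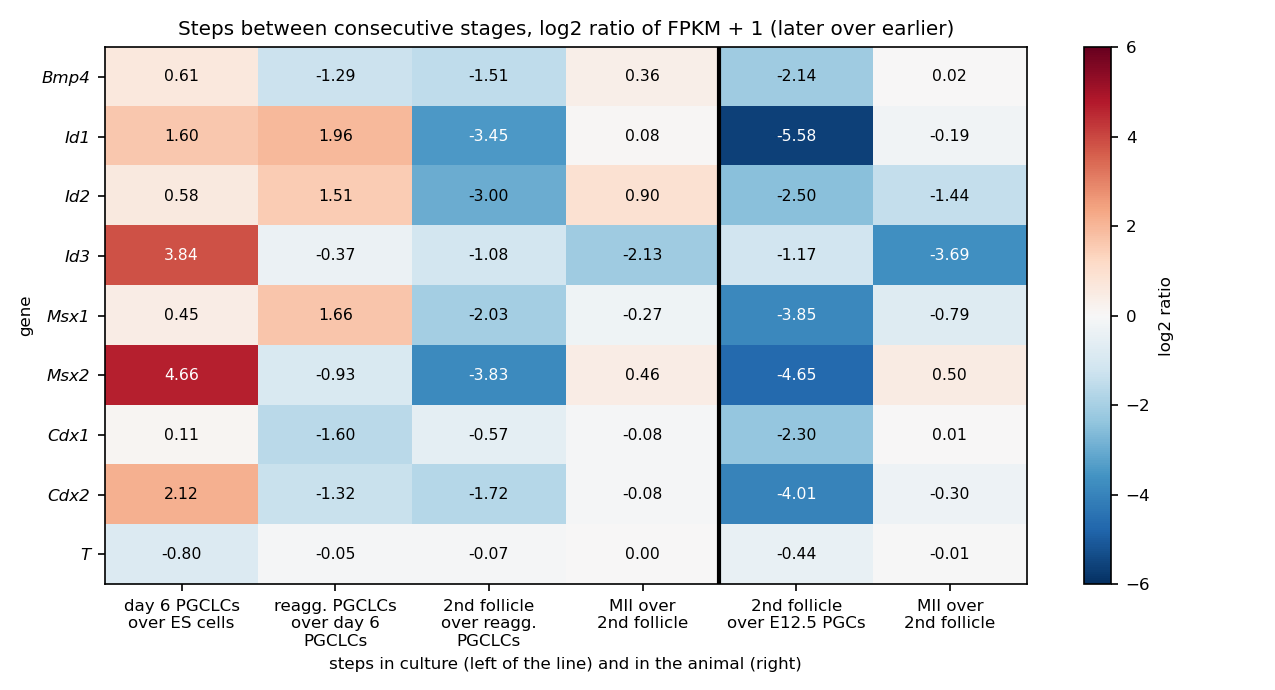
Log2 ratio of FPKM + 1, later over earlier stage, for the 9 genes (down) and the 4 steps in culture and 2 steps in the animal (across), with the value printed in each cell and red for higher in the later stage. Msx2 at 4.66 and Id3 at 3.84 lead the first step, and the step into secondary follicle oocytes is blue for the 9 genes in both routes, with Id1 at -3.45 in culture and -5.58 in the animal.

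The step into the growing oocyte was downward for the genes in both routes. Secondary follicle oocytes of culture had 7 of 8 genes lower than reaggregated PGCLCs and 0 higher, where 26.4% of all genes were lower and 25.2% higher. Msx2 (-3.83), Id1 (-3.45), Id2 (-3.00) and Msx1 (-2.03) had the largest ratios, Cdx2 (-1.72), Bmp4 (-1.51) and Id3 (-1.08) followed, and Cdx1 (-0.57), at 0.199 against 0.776 FPKM, was within 2-fold. In the animal 8 of 8 genes were lower and 0 higher in secondary follicle oocytes than in E12.5 PGCs, where 25.9% of all genes were lower and 24.3% higher. There Id1 (-5.58), Msx2 (-4.65), Cdx2 (-4.01) and Msx1 (-3.85) had the largest ratios and Id3 (-1.17) the smallest. The 8 genes had a median of -1.88 in culture and -3.17 in the animal, with -0.09 over all genes in each. Id3 in culture lay near the line and was within 2-fold with median ratio scaling (-0.99). Of all calls in culture 48.9% were higher in secondary follicle oocytes, and 38.6% with equal sums. Stroma markers summed to 0.806 FPKM in cultured secondary follicle oocytes and 24.3 FPKM in reaggregated PGCLCs, with 4 of 5 counted genes lower, and to 1.27 FPKM in those of the animal and 28.1 FPKM in E12.5 PGCs, with 1 of 5 lower. Granulosa markers had 2 genes higher and 3 lower of 10 in culture, and 3 higher and 0 lower in the animal. Their part in the ratios was not tested.

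From secondary follicle to MII oocytes the routes gave different signs for Id2. In culture Id2 had 5.05 FPKM in MII and 2.25 in secondary follicle oocytes (0.90), and in the animal 1.32 and 5.29 FPKM (-1.44). The difference between these 2 ratios was not tested, and the animal one was within 2-fold with quantile normalization (-0.43) and with a pseudocount of 5 (-0.70). Id3 was lower in MII oocytes of both routes, at 15.5 against 71.3 FPKM in culture (-2.13) and 7.04 against 103 FPKM in the animal (-3.69). The culture ratio of Id2 passed 2-fold with quantile normalization (1.42) and with a pseudocount of 0.1 (1.13). It was 0.47 with a pseudocount of 5 and 0.26 with equal sums, where the median over all genes was -0.50. As deposited, Id3 was the 1 gene called in culture, with 0 of 8 higher, where 28.6% of all genes were lower and 23.9% higher. In the animal Id2 and Id3 were called lower and 0 of 8 higher, where 33.1% of all genes were lower and 28.0% higher. With equal sums, 27.5% of the calls in culture were higher in MII oocytes in place of 45.6%, and 25.0% in the animal in place of 45.8%. The remaining genes were below 1 FPKM at both stages, except Id1, which had 3.61 and 3.38 FPKM in cultured MII and secondary follicle oocytes and 1.15 and 1.46 FPKM in the animal. Of 10 counted granulosa markers 5 were higher and 1 lower in culture, and 4 higher and 1 lower in the animal. Inha had 19.3 FPKM in MII and 2.78 in secondary follicle oocytes of culture, and 2.55 and 2.98 FPKM in the animal. Of 5 counted stroma markers 2 were higher in culture and 1 in the animal. Vim had 14.9 and 0.411 FPKM in culture and 2.24 and 0.518 FPKM in the animal. The part of these markers in the ratios was not tested.

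Other genes, taken from lists by role with GDF genes among the ligands, were then compared between reaggregated PGCLCs and E12.5 PGCs, where 1.39% of all genes were higher and 0.786% lower. Of 7 counted ligand genes, 10 receptor and coreceptor genes, 6 SMAD genes and 12 inhibitor genes, 0 were past 2-fold in either direction. Of 6 other BMP targets Id4 alone was lower (9.11 FPKM in reaggregated PGCLCs, against 20.0 in E12.5 PGCs, -1.05). Of 12 other posterior mesoderm genes 3 were lower and 0 higher. These were Sp5, a target of Wnt signalling (0.828 and 9.73 FPKM, -2.55), the Wnt feedback gene Axin2 (9.17 and 21.3 FPKM, -1.13) and Evx1, a homeodomain factor of the primitive streak (0.110 and 1.75 FPKM, -1.31). The median over the posterior mesoderm list was -0.37 and over the other targets -0.40.

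**Figure D5:**
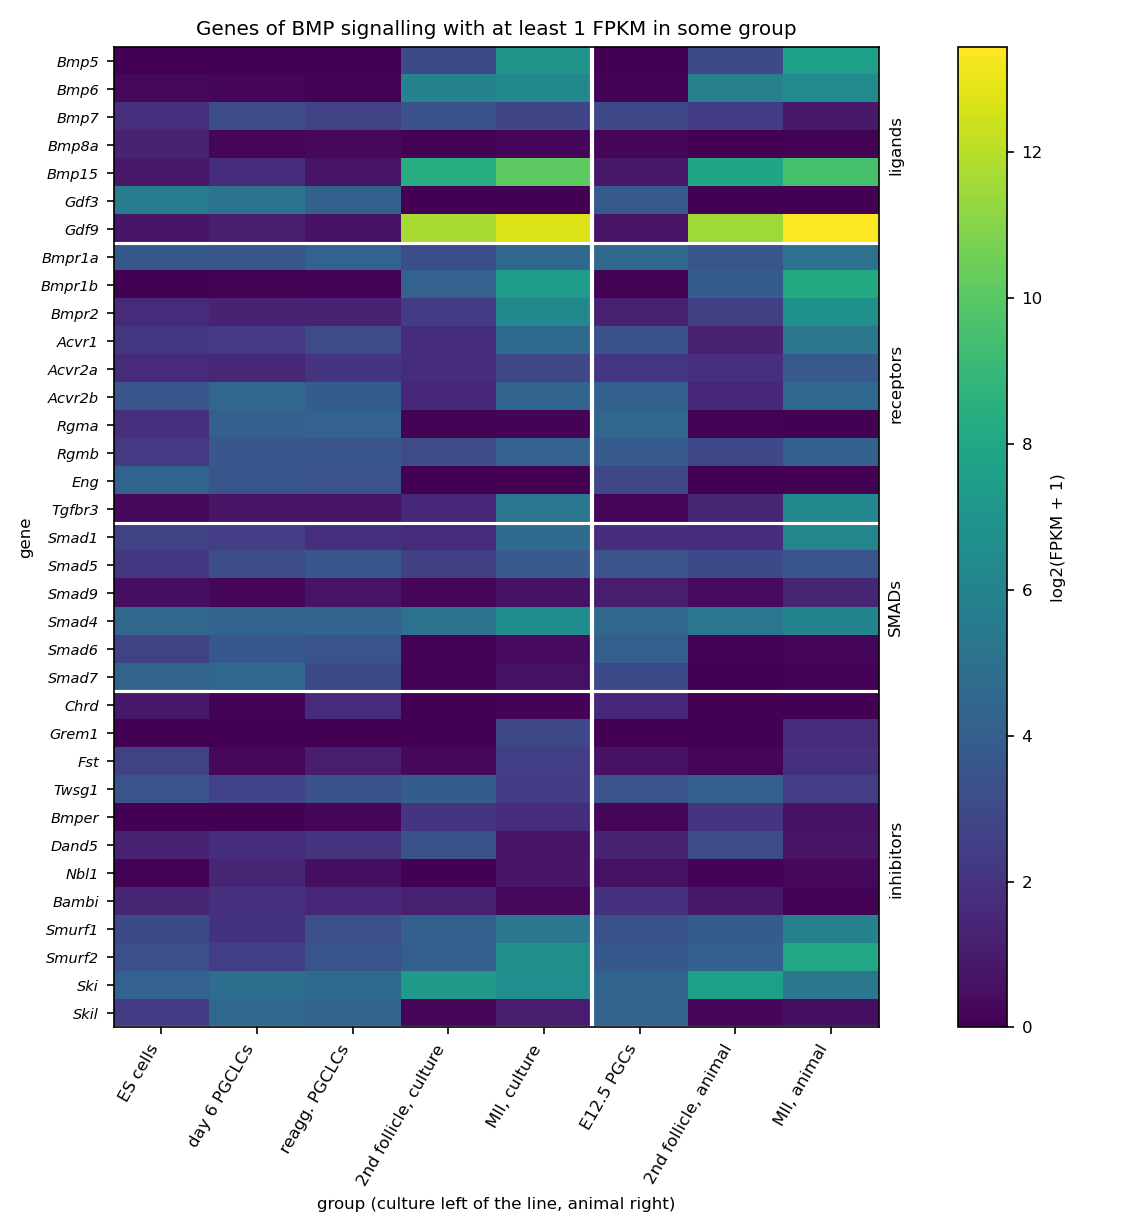
Level as log2(FPKM + 1) of the 35 genes of the BMP and GDF ligand, receptor, SMAD and inhibitor lists that reached 1 FPKM in some group (rows) in the 8 groups (columns, culture left of the white line, animal right). Gdf9, Bmp15 and Bmp6 are bright in the 4 oocyte groups, and Smad6, Smad7, Rgma and Eng are dark there.

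In day 6 PGCLCs several genes of the lists moved beside Id3 and Msx2, in both directions, in a comparison with 9.63% of all genes higher and 12.0% lower. Smad6, an inhibitory SMAD, had 12.0 FPKM in day 6 PGCLCs and 5.19 in ES cells (1.07) and Smad5 7.94 and 3.41 FPKM (1.02), the 2 higher of 6 SMAD genes. Smad7, the other inhibitory SMAD gene, had 21.8 and 19.3 FPKM and was within 2-fold. Of 12 inhibitor genes 2 were higher and 2 lower. Skil (21.6 and 4.27 FPKM, 2.10) and Nbl1 (1.59 and 0.0574 FPKM, 1.29) were higher, and Fst (0.213 and 5.04 FPKM, -2.32) was among the lower. The BMP coreceptor genes Rgma (16.3 and 2.64 FPKM, 2.25) and Rgmb (11.7 and 3.77 FPKM, 1.41) were the 2 higher of 10 receptor genes. Among 6 other BMP targets 2 were higher, led by the Notch and BMP target Hey1 (46.0 and 0.979 FPKM, 4.57), and 2 lower, Tbx3 (0.661 and 51.6 FPKM, -4.99) and Id4 (1.66 and 17.0 FPKM, -2.76). Tbx3 is also one of the ES cell markers used to check the labels. Of 12 posterior mesoderm genes 5 were higher and 3 lower, among them Lef1, a nuclear effector of Wnt signalling (53.3 and 0.830 FPKM, 4.89), Lhx1 (6.22 and 0.00836 FPKM, 2.84) and Sp5, which was lower (0.617 and 9.02 FPKM, -2.63). Among 7 ligand genes Bmp7 was higher (8.08 and 2.46 FPKM, 1.39) and Bmp8a lower (0.153 and 1.46 FPKM, -1.09).

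Between reaggregated and day 6 PGCLCs the ligand and receptor lists had 0 genes past 2-fold, where 5.15% of all genes were higher and 5.04% lower. Smad7, an inhibitory SMAD, was lower in reaggregated PGCLCs (6.94 and 21.8 FPKM, -1.52), the only one of 6 SMAD genes called. Among 12 inhibitors the BMP antagonist Chrd (2.13 and 0.102 FPKM, 1.51) and the ubiquitin ligase gene Smurf1 (8.68 and 2.87 FPKM, 1.32) were higher. Id4, the fourth gene of the Id family, was higher like Id1 and Id2 (9.11 and 1.66 FPKM, 1.93), as was Gata2 (49.2 and 20.7 FPKM, 1.21), while Hey1 was lower (16.4 and 46.0 FPKM, -1.43). Evx1 (0.110 and 2.71 FPKM, -1.74) and Lef1 (18.8 and 53.3 FPKM, -1.45) were the 2 lower posterior mesoderm genes, and Fgf8 (1.31 and 0.0122 FPKM, 1.19) the 1 higher.

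In secondary follicle oocytes the ligand genes of the oocyte were high and Bmp4 low. Gdf9 had 3394 FPKM in cultured secondary follicle oocytes and 0.585 in reaggregated PGCLCs (11.06), Bmp15 337 and 0.719 FPKM (7.62) and Bmp6 61.0 and 0.0540 FPKM (5.88), and 4 of 7 ligand genes were higher and 1 lower. In the animal Gdf9 had 2936 FPKM in secondary follicle oocytes and 0.637 in E12.5 PGCs (10.81), Bmp15 239 and 0.849 FPKM (7.02) and Bmp6 57.5 and 0.0993 FPKM (5.73), with 4 of 7 higher and 1 lower as well. The shares over all genes were again 25.2% higher and 26.4% lower for culture, with 24.3% higher and 25.9% lower for the animal. Gdf9 and Bmp15 are also among the oocyte markers. The inhibitory SMAD genes were lower, Smad6 at 0.0554 against 10.0 FPKM in culture (-3.38) and 0.0832 against 16.0 FPKM in the animal (-3.97), and Smad7 at 0.0392 against 6.94 FPKM in culture (-2.93) and 0.0179 against 7.15 FPKM in the animal (-3.00). So was Gata2, at 0.222 against 49.2 FPKM in culture (-5.36) and 0.220 against 70.4 FPKM in the animal (-5.87). Of the receptor list, culture had 2 genes higher and 4 lower, and the animal 3 higher and 4 lower, with Bmpr1b, a type I receptor gene, higher in both (4.10 in culture and 3.87 in the animal).

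The other posterior mesoderm genes went both ways at this step. In culture 5 of the 12 were higher and 4 lower, beside 25.2% and 26.4% of all genes, and in the animal 5 were higher and 5 lower, beside 24.3% and 25.9% of all genes. Evx1 had 79.9 FPKM in cultured secondary follicle oocytes and 0.110 in reaggregated PGCLCs (6.19), and 59.6 FPKM in the animal against 1.75 in E12.5 PGCs (4.46). Snai1, a repressor of E-cadherin, had 45.0 FPKM in culture against 0.622 (4.83), and 43.1 FPKM in the animal against 0.515 (4.86). Among the E protein genes, whose products the Id proteins bind, Tcf3 (E2A) was the 1 of 3 called and was lower, at 52.0 against 125 FPKM in culture (-1.25) and 50.7 against 138 FPKM in the animal (-1.43).

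In MII oocytes receptor genes stood higher than in secondary follicle oocytes, 8 of 10 in each route and 0 lower, beside all-gene shares of 23.9% (higher) and 28.6% (lower) in culture and 28.0% and 33.1% in the animal, while 0 of the 3 Id genes were called higher. Bmpr1b had 163 FPKM in cultured MII and 17.5 in cultured secondary follicle oocytes (3.15), and 289 and 14.3 FPKM in the animal (4.24). Bmpr2, the type II receptor gene, had 77.2 and 4.18 FPKM in culture (3.92) and 105 and 4.83 FPKM in the animal (4.18). Smad1 had 24.8 and 2.02 FPKM in culture (3.09) and 68.6 and 2.43 FPKM in the animal (4.34), and Bmp5 122 and 7.02 FPKM in culture (3.94) and 193 and 7.14 FPKM in the animal (4.58). Between the routes at MII, where 12.4% of all genes were higher in culture and 9.45% lower, calls in the 7 lists went both ways. Lower in culture were Smad1 (-1.43), the coreceptor gene Tgfbr3 (38.1 and 77.4 FPKM, -1.00), the ubiquitin ligase gene Smurf2 (98.5 and 266 FPKM, -1.42) and Mesp2 (189 and 508 FPKM, -1.43). Higher in culture were Bmp7 (6.13 and 0.919 FPKM, 1.89), the BMP antagonist Grem1 (6.45 and 2.05 FPKM, 1.29), the BMP-binding protein gene Bmper (2.36 and 0.587 FPKM), the SMAD corepressor gene Ski (94.9 and 39.6 FPKM, 1.24), Snai1 (22.1 and 10.0 FPKM, 1.07) and the E protein gene Tcf4 (4.71 and 1.64 FPKM, 1.11). In secondary follicle oocytes 0 genes of the 7 lists were past 2-fold between the routes, where the shares over all genes were 1.74% higher and 0.660% lower.

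Among the 9 genes, levels over the 8 groups ran closest for Cdx1 with Bmp4 (Pearson r of 0.96 on log2(FPKM + 1)), Msx1 with Id1 (0.95) and Id1 with Id2 (0.94). Msx2 ran closest with Cdx2 (0.92), and Id3 had r of at most 0.72 with any other of the 9. Over the whole table, the genes most like Id1 were Sdr42e1 (0.985), Fgfr3, a fibroblast growth factor receptor gene (0.970), and Dzip3 (0.969), and Sdr42e1 (0.961) was also near Msx1, after Tex101, a germ cell surface protein gene (0.976), and Syce3, of the synaptonemal complex (0.966). Nearest to Id3 was Dusp5, a MAP kinase phosphatase gene (0.982), with 28.8 FPKM in day 6 PGCLCs, 40.6 after reaggregation and 52.0 in E12.5 PGCs. Nearest to Msx2 were Enpp3 (0.990), Atp10a (0.989) and Aif1l (0.986), to Bmp4 the Wnt receptor gene Fzd10 (0.989), to Cdx2 Mogat2 (0.965) and to Id2 the caspase gene Casp6 (0.963). These values describe 8 points that share strain within a route and, except for ES cells and day 6 PGCLCs, stage between routes. For each gene 8990 or 8991 genes were searched.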

How the data were processed

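RNA-seq libraries of 23 samples were made from poly(A)+ RNA with a directional kit, per the labels' protocols, from 99 to 134 oocytes for MII and 337 to 812 for secondary follicle oocytes, 5300 to 15000 reaggregated PGCLCs, 10000 day 6 PGCLCs and 10000 to 13200 ES cells; no number is given for E12.5 PGCs. The values are FPKM as the authors deposited them, 1 per gene and group. How samples were combined, the depth of each and whether counting used strand are not given in the sources used here. The submitters' processing notes name TopHat2, Bowtie2 2.0.13, Cufflinks, Cuffdiff 2.2.1 and mm10, without their roles. From these values log2 ratios of FPKM + 1 were computed for 9 comparisons with Python 3.11.15, pandas 2.3.3 and numpy 2.4.6, over the 14242 genes with at least 1 FPKM in some group, and called at 2-fold; the calculation was tested on simulated data. With 1 value per group no test was run. The genes, the 7 pathway lists and the 7 marker lists were chosen with earlier results of these data known. From each pathway list up to 3 genes past 2-fold per comparison, with at least 1 FPKM in the higher group, were named by size of ratio. The 3 genes most like each gene were taken by Pearson r among genes with at least 10 FPKM in some group, for those with at least 5 FPKM. The 7 alternatives were pseudocounts of 0.1 and 5, no filter, a filter of 5 FPKM, quantile normalization, median ratio scaling and equal sums. Promoters are from RefSeq (GRCm38.p6) and gene positions from GENCODE M21 on GRCm38.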

Additional observations from a re-analysis of the deposited data

How the results depend on the processing

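No paired analysis was possible because the table holds 1 value per group, and for the same reason leaving out single samples was not run. Of 495 ratios of the 8 genes under the 7 alternatives, 452 kept their sign and their side of 2-fold, 19 dropped within it, 17 passed it, 7 changed sign while within it and 0 past it. With a pseudocount of 0.1 the number of genes past 2-fold was 3 instead of 0 between routes in secondary follicle oocytes, 6 instead of 3 in MII oocytes, 4 instead of 1 for MII over secondary follicle oocytes in culture and 5 instead of 2 in the animal. With a pseudocount of 5 it was 0 instead of 3 between routes in MII oocytes, 2 instead of 6 for reaggregated over day 6 PGCLCs, 4 instead of 7 for secondary follicle oocytes over reaggregated PGCLCs and 1 instead of 2 for MII over secondary follicle oocytes in the animal. Quantile normalization gave 0 instead of 3 between routes in MII oocytes and 2 instead of 1 for MII over secondary follicle oocytes in culture. For the same step in the animal it kept the number at 2, but 1 was higher and 1 lower. There Msx2, at 0.440 and 0.0162 FPKM as deposited, passed 2-fold upward (1.10) and Id2 was within 2-fold (-0.43). The pseudocount acts on low values by construction; the cause of the other moves was not tested. With equal sums the median ratio of all genes was 0.23 between routes in MII oocytes, 0.11 for reaggregated over day 6 PGCLCs, -0.38 and -0.50 for the 2 later steps in culture and -0.34 and -0.74 for those in the animal, and ratios there are to be read relative to it. With median ratio scaling it was 0.12 between routes in MII oocytes and -0.28 for the last step in the animal. Differences between groups that are smaller than the spread between samples cannot be told from it, since neither the spread nor the depth is known.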
